A study of Mus musculus with 4 samples.

Results

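The thioredoxin and peroxiredoxin antioxidant genes comprise 10 members: the thioredoxins Txn1 and Txn2, the thioredoxin reductase Txnrd1, the peroxiredoxins Prdx1, Prdx2, Prdx3, Prdx4, Prdx5 and Prdx6, and the glutathione peroxidase Gpx4. They were chosen by symbol from the 27514 genes listed in all 4 single-cell RNA-seq libraries, and all 10 passed the filter on low counts in every comparison. The libraries held undifferentiated spermatogonia (A_undiff) sorted from the testis of adult C57BL/6J mice (6 to 8 weeks) as E-Cadherin+, α6-integrin+ and c-KIT- cells. The 2 CTRL libraries came from control mice, and the 2 BU libraries from mice taken at day 10 (D10) after busulfan (BU, 10 mg/kg once), a DNA alkylating agent that depletes spermatogonia. Each library pooled cells of 3 mice, and a CTRL and a BU library were made in each of 2 experiments, so n = 2 per group. With condition as the only term, p-values of BU against CTRL measure the spread between libraries of a group.

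Thioredoxins are small proteins that reduce disulphide bonds in other proteins, and thioredoxin reductases recharge them with electrons from NADPH. Peroxiredoxins destroy hydrogen peroxide, and most of them are returned to the active form by thioredoxin. Gpx4 is a selenoprotein that reduces lipid peroxides with glutathione, protects cells from ferroptosis and is abundant in maturing spermatids, where it also becomes a structural protein of the sperm midpiece.

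A cell passed if it had more than 1000 detected genes and if less than 20% of its unique molecular identifiers (UMIs) were mitochondrial, which left 7493 of 9229 barcodes, between 1120 and 3101 per library. The median UMI count per cell in experiment 1 was 8066 (CTRL) and 9857.5 (BU), and in experiment 2 it was 30931 (CTRL) and 34176.5 (BU). Levels are UMIs per 1000000 UMIs of the same cells (CPM), and since they count 3′ ends, values of different genes are not ranked. Cells were called Gfra1+, Sox3+ or Kit+ where the natural log of 1 plus 100000 times that gene's share of UMIs was above 2, so 1 cell could fall in several classes. At this cut-off 1 UMI was enough in 96.9% (CTRL) and 90.1% (BU) of the passing cells of experiment 1. In experiment 2 it was enough in 17.0% (CTRL) and 13.8% (BU). Gfra1 marks the stem cell-enriched fraction, Sox3 the progenitors and Kit the differentiating cells, here by transcript, since the sort removed cells with surface c-KIT. The 6 differentiating markers, with Kit, summed in Kit+ cells to 1975, 1136, 1395 and 971 CPM (CTRL 1, CTRL 2, BU 1, BU 2). In Gfra1+ cells they summed to 1269, 863, 1569 and 1075 CPM, higher than in Kit+ cells of both BU libraries. Kit+ is therefore a label by 1 transcript and not a shown state of differentiation. Gfra1+ cells numbered 585 and 214 for CTRL (experiments 1 and 2) and 865 and 528 for BU. Sox3+ cells numbered 1470, 646, 473 and 264 in the same order, and Kit+ cells 36, 37, 322 and 156.

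CTRL 2 and BU 2 shared 677 cell barcodes (33.5% and 36.4% of their barcodes), whereas other pairs shared at most 11. The shared barcodes of passing cells in BU 2 had a median of 55029 UMIs there and 768 in CTRL 2. Removing every shared barcode took 523 of the 1264 passing cells from BU 2, and keeping each in the library where it had more UMIs took 25. Levels and tests are therefore given also without them where this mattered. The germline markers Ddx4, Sall4, Zbtb16, Cdh1 and Foxo1 summed to between 550 and 807 CPM in the 4 libraries. Spermatid markers summed to 3005 and 17929 CPM for CTRL (experiments 1 and 2) and 1069 and 9217 CPM for BU, and haemoglobin and the other erythrocyte markers to at most 1.9 CPM.

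The members lie on separate loci of the GRCm38 assembly in the GENCODE M21 annotation. Txn1 (ENSMUSG00000028367) spans chr4:57943373-57956411 on the minus strand and Txnrd1 (ENSMUSG00000020250) chr10:82833951-82897712 on the plus strand. Gpx4 (ENSMUSG00000075706) spans chr10:80047166-80056439, Prdx1 (ENSMUSG00000028691) chr4:116685544-116700822 and Prdx3 (ENSMUSG00000024997) chr19:60864051-60874556. Txnrd1 overlaps 1305 bases of Eid3 on its own strand, and Prdx2 and Prdx5 overlap neighbours on the opposite strand only.

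Promoters in the RefSeq table (GRCm38.p6, 250 bases before to 50 after a start) covered 9 of the 10 members, all but Prdx6, with 14 entries. The antioxidant response element is the site bound by NRF2, the main transcription factor of the oxidative stress response, and Txnrd1, Prdx1 and Txn1 are textbook targets of it. The motif TGACNNNGC was searched on both strands. It was found in 1 of 3 Txnrd1 promoters and in the Prdx1 promoter, and in no other entry of the members. That was 14.3% of the 14 entries, near the 12.4% of the 32851 promoters of the table. The 3 promoters are shown because Txn1 and Txnrd1 had the largest BU differences of the members and because Prdx1 and Txnrd1 held the motif, whose match is in capitals and reads on the opposite strand of each gene.
Txnrd1, chr10:82858956-82859255, plus strand: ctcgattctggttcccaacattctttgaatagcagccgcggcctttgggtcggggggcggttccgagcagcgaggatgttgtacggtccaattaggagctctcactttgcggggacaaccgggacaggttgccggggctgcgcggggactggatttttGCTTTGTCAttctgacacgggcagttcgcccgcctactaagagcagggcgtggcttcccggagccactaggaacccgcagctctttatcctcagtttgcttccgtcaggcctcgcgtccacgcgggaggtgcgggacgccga
Prdx1, chr4:116685349-116685648, plus strand: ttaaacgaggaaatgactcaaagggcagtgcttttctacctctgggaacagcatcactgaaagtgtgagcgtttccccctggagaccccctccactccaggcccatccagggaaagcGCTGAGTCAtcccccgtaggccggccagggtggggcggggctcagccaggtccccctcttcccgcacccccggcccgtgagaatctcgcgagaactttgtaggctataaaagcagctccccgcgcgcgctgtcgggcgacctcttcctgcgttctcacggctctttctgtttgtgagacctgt
Txn1, chr4:57956362-57956661, minus strand: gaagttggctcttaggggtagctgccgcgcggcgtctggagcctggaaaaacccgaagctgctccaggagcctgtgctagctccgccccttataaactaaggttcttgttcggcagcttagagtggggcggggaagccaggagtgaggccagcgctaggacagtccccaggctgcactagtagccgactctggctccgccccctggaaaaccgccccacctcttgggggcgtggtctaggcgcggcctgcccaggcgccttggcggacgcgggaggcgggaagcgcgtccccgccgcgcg

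The first comparison asked how the members differed between regenerating and undisturbed A_undiff. Txn1, the cytosolic thioredoxin, was at 54.7 CPM (CTRL 1) and 55.4 CPM (CTRL 2) over all passing cells, while the BU libraries had 144 CPM (BU 1) and 127 CPM (BU 2). The groups did not overlap, and Txn1 was higher by 1.33 ± 0.26 (SE) on the log2 scale (edgeR quasi-likelihood test, adjusted p = 0.869, n = 2). With the experiment as a block, which pairs each BU library with its CTRL library, the value was 1.32 ± 0.20 and Txn1 rose (adjusted p = 0.0350). Without the block 0 of 17354 genes passed (percent called 0, with 926 at an unadjusted p under 0.05 and 119 by DESeq2), and with it 1.49% did, Txn1 being the 1 member of 10. Keeping shared barcodes in the deeper library gave an adjusted p of 0.0324 with the block (1.54% called), and removing all of them gave 1.32 with an adjusted p of 0.283 (0 of 16241 genes called). With total UMI scaling and the block the adjusted p was 0.0595. Without the mitotic cells, those with over 0.1% of UMIs in 7 mitotic genes, it was 0.109 with the block, a setting in which 0.00585% of genes passed.

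Txnrd1, which recharges cytosolic thioredoxin, was at 45.5 and 59.0 CPM in the CTRL libraries and at 115 and 91.4 CPM in the BU libraries, experiment 1 first as in all values below. The groups did not overlap, and the difference of 1.02 ± 0.30 missed the threshold without (adjusted p = 0.874) and with the block (1.01 ± 0.24, adjusted p = 0.0902). With the block it passed by DESeq2 (0.93, adjusted p = 0.0398, 4.92% called, Txn1 being the other member) and without cells carrying spermatid or somatic markers (0.87, adjusted p = 0.0191, 9.16% called, again with Txn1). In experiment 1 the log2 ratio of BU to CTRL was 1.33 and in experiment 2 it was 0.63. Without all shared barcodes Txnrd1 had 1614 of 27135738 UMIs in CTRL 2 and 1296 of 18096181 in BU 2. The difference in experiment 2 was then smaller, and the groups still did not overlap. Txn1 and Txnrd1 had the largest BU differences, of either sign, among the 10 members in all passing, Gfra1+ and Sox3+ cells. Txnrd1 passed in 0 of 24 alternatives in Gfra1+ and 0 of 24 in Sox3+ cells. Gfra1+ cells were 18.9% and 19.1% of the passing cells in the CTRL and 43.1% and 41.8% in the BU libraries. Sox3+ cells were 47.4%, 57.7%, 23.6% and 20.9% in the same order, and had less Txnrd1 than Gfra1+ cells (below). The part of this make-up in the Txnrd1 difference over all passing cells was not tested.

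**Figure D1:**
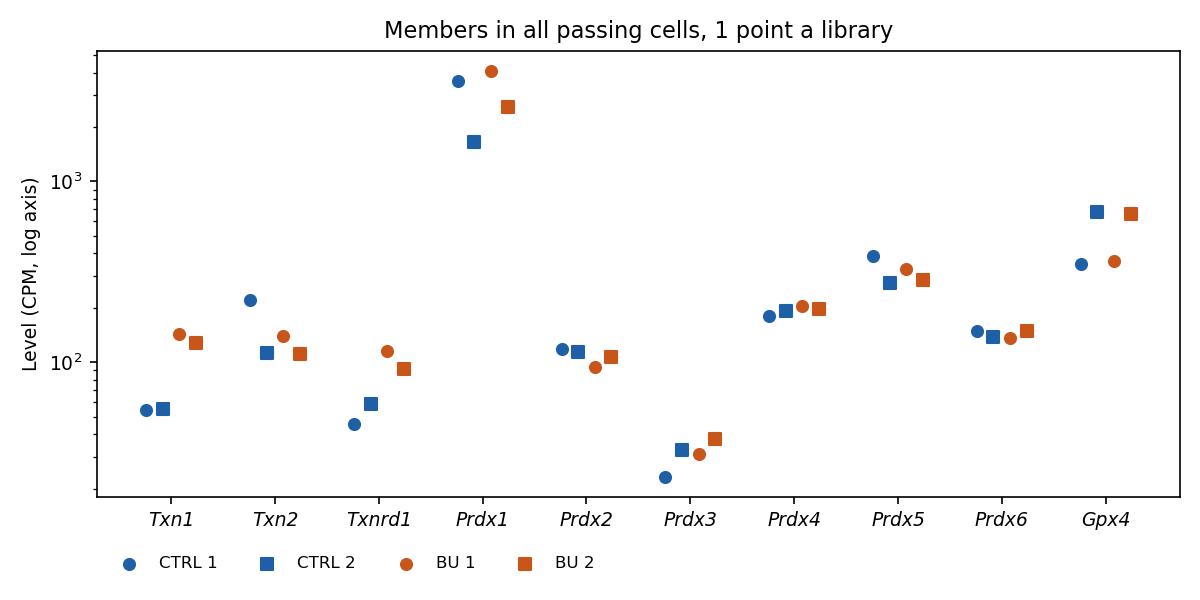
Level of each of the 10 members in all passing cells (CPM, log axis), with 1 point for each library (blue CTRL, orange BU, circles experiment 1, squares experiment 2). The BU points of Txn1 (144 and 127 CPM) and Txnrd1 (115 and 91.4 CPM) lie above the CTRL points, whereas Prdx1, Txn2 and Gpx4 separate by experiment.

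In Gfra1+ cells Txn1 was at 67.5 and 81.1 CPM for CTRL, while both BU libraries stood higher at 148 and 152 CPM. The difference was 1.11 ± 0.26 on the log2 scale (edgeR, adjusted p = 1.00, with 0% of genes called, 583 at an unadjusted p under 0.05 and 15 called by DESeq2). With the block it was 1.11 ± 0.21 and missed the threshold (adjusted p = 0.0778, with 0.066% of 13632 genes called). It passed with the block by DESeq2 (adjusted p = 0.0183, 0.425% called), without mitotic cells (0.0164, 0.949% called) and without cells carrying spermatid or somatic markers (0.0479, 0.461% called), but not with shared barcodes kept in the deeper library (0.122, 0.00734% called). Txnrd1 was at 64.8 and 100 CPM in the CTRL and at 138 and 126 in the BU libraries, a difference of 0.78 ± 0.30 (adjusted p = 1.00, and 0.212 with the block). Without the shared barcodes BU 2 was at 91.4 CPM and CTRL 2 at 96.9, so the groups of Txnrd1 then overlapped.

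In Sox3+ cells Txn1 was at 51.8 and 48.2 CPM for CTRL, while BU gave 119 and 130 CPM. The BU levels were more than double the CTRL levels in both experiments, with a log2 difference of 1.28 ± 0.24 (edgeR, adjusted p = 0.191, with 0% of genes called, 2028 at an unadjusted p under 0.05 and 328 called by DESeq2, Txn1 among them at an adjusted p of 0.00534). With the block Txn1 rose by 1.28 ± 0.17 (adjusted p = 0.0282), again the 1 member called, beside 5.69% of 14445 genes. Without all shared barcodes the value was 1.23 with an adjusted p of 0.0869 (block, 26 of 13697 genes called), and with each kept in the deeper library 0.0269 (5.99% called). Txn1 also passed with the block by DESeq2 (adjusted p = 1.39e-04, 5.95% called) and without cells carrying spermatid or somatic markers (0.0161, 7.65% called). With 1 library left out and no block, the spread comes from the pair of libraries of the other group alone, and the Txn1 difference ranged from 1.18 to 1.35, with an adjusted p of 0.0363 without CTRL 2 and of 0.110, 0.519 and 0.669 without CTRL 1, BU 1 and BU 2. Txnrd1 was at 40.3 and 58.6 CPM in the CTRL libraries and at 84.6 and 85.3 in the BU libraries, a difference of 0.73 ± 0.28 (adjusted p = 0.340, and 0.0769 with the block). Without all shared barcodes it had 1061 of 20168143 UMIs in CTRL 2 and 266 of 4203078 in BU 2. Its difference in experiment 2 was then smaller, with no overlap of the groups. Of the Sox3+ cells, 1299 of 1470 and 552 of 646 (CTRL) but 245 of 473 and 128 of 264 (BU) were in no other class. Their 6 progenitor markers summed to 707, 593, 269 and 232 CPM (CTRL 1, CTRL 2, BU 1, BU 2). The 7 stem cell markers summed to 87.4, 99.9, 179 and 270 CPM. The Txn1 difference was between 1.16 and 1.35 in 24 alternatives, cells in no other class among them. The part of class make-up in the differences beyond these values was not tested.

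The cells of the BU libraries also carried more mitotic transcripts. The 7 mitotic markers summed in Gfra1+ cells to 802 and 927 CPM in the CTRL and 1365 and 1406 in the BU libraries, and in Sox3+ cells to 607, 606, 1237 and 1319. Within Gfra1+ cells Txn1 was at 61.4, 70.7, 132 and 144 CPM (CTRL 1, CTRL 2, BU 1, BU 2) in those that were not mitotic and at 85.5, 107, 163 and 158 in the mitotic ones. In Sox3+ cells that were not mitotic it was at 46.8, 41.9, 106 and 123 CPM, and the difference was as large without the mitotic cells (1.33 with the block, adjusted p = 0.00269, 5.87% called). Txnrd1 in mitotic Gfra1+ cells was at 106 and 170 CPM in the CTRL and at 159 and 151 in the BU libraries, which overlapped, while in the cells that were not mitotic it was at 50.7, 72.8, 116 and 94.8 CPM and did not overlap. The part of the cell cycle in the differences of these libraries beyond these values was not tested.

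**Figure D2:**
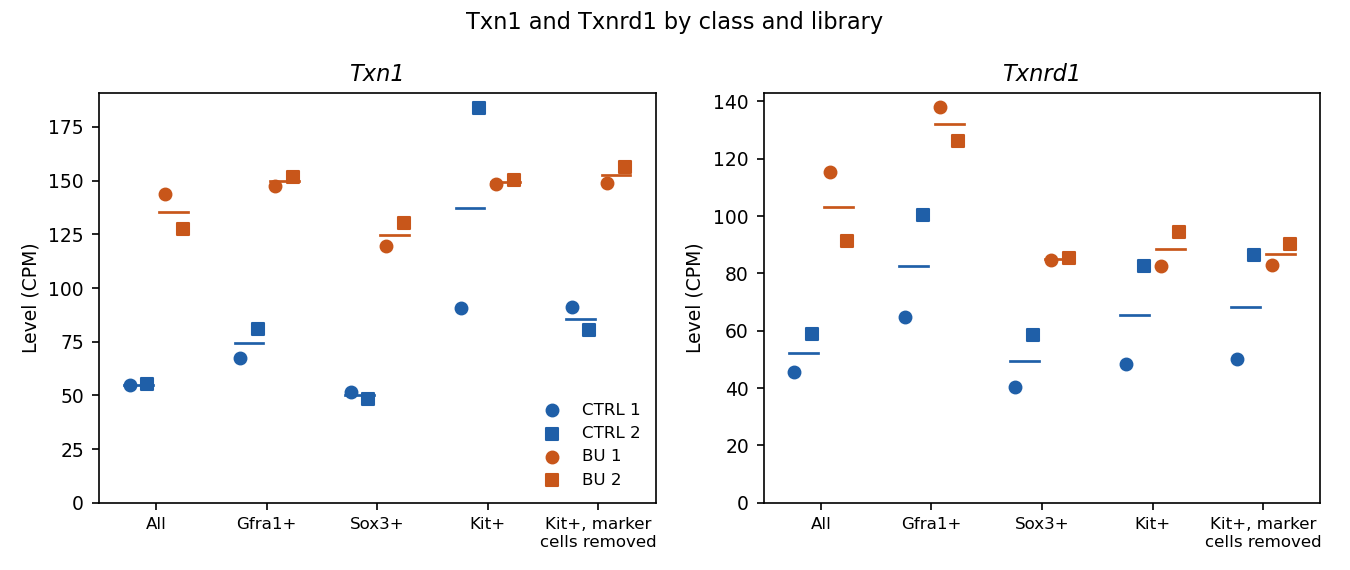
Level of Txn1 (left) and Txnrd1 (right) in CPM by class, with 1 point for each library and a bar at the mean of each group of 2. Txn1 in Gfra1+ and Sox3+ cells lies at 119 to 152 CPM in the BU and 48.2 to 81.1 in the CTRL libraries, and in Kit+ cells the point of CTRL 2 moves from 184 to 80.4 CPM when cells with spermatid or somatic markers are removed.

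Cells were also thinned at random to 5000 UMIs each, to count the share with at least 1 UMI at equal depth. After thinning, a Txn1 UMI was present in 27.9% and 34.9% of the CTRL and 45.7% and 48.1% of the BU cells that were Gfra1+. In Sox3+ cells the Txn1 shares were 21.3%, 19.6%, 42.4% and 43.6%. Txnrd1 shares in Sox3+ cells were 17.1% and 23.98% in the CTRL and 33.0% and 29.7% in the BU libraries. The groups did not overlap in any of these, but the exact permutation test (two-sided) over 4 libraries cannot go below p = 0.33, which each of them had. No class of cells known to lack these genes was at hand as a background, so the shares include any free RNA.

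For no member did the BU change pass a test of difference between Sox3+ and Gfra1+ cells. Over cells in 1 class only, Txn1 changed by 0.16 ± 0.26 more in Sox3+ than in Gfra1+ cells on the log2 scale (edgeR interaction term, adjusted p = 0.974), and Txnrd1 by -0.02 ± 0.15 (adjusted p = 1.00). The other members lay between -0.38 for Prdx6 and 0.11 for Gpx4. None of the 10 members passed, beside 0.0377% of 13273 genes (858 at an unadjusted p under 0.05, 5 after adjustment), and none did without the cells carrying spermatid or somatic markers (0.651% called).

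The mitochondrial thioredoxin Txn2 was at 215 and 113 CPM in Gfra1+ cells of the CTRL libraries and at 144 and 109 CPM in those of the BU libraries. CTRL 1 stood above the other libraries in all 3 classes, and the Txn2 difference was -0.40 in all passing, -0.29 in Gfra1+ and -0.56 ± 0.37 in Sox3+ cells (adjusted p = 0.567 in the last, and 0.164 with the block).

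Of the cytosolic peroxiredoxins, Prdx1 was at 4169 and 2074 CPM in Gfra1+ cells of the CTRL libraries and at 4651 and 2911 CPM in those of the BU libraries. Its levels were higher in both libraries of experiment 1, made with version 2 of the droplet kit according to the labels, than in those of experiment 2 (version 3.1), and kit and experiment cannot be told apart. The BU difference of Prdx1 was 0.36 ± 0.51 in all passing, 0.35 ± 0.46 in Gfra1+ and 0.14 ± 0.37 in Sox3+ cells (adjusted p = 1.00, 1.00 and 0.906). These SE include the gap between experiments. Within each experiment the BU library was above the CTRL library in all passing, Gfra1+ and Sox3+ cells. Prdx1 passed in 0 of 21, 0 of 24 and 0 of 24 alternatives there, the fit with the block among them. Prdx2, the form best known from red blood cells, was at 122 and 116 CPM in Sox3+ cells of the CTRL and at 92.6 and 109 in those of the BU libraries, with no overlap and a difference of -0.28 ± 0.24 (adjusted p = 0.661). The Prdx2 difference was -0.18 in all passing and -0.15 in Gfra1+ cells (adjusted p = 1.00 in both). Without all shared barcodes Prdx2 in BU 2 was at 129 CPM and the groups overlapped.

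The other peroxiredoxins differed by at most 0.33 on the log2 scale between BU and CTRL in all passing, Gfra1+ and Sox3+ cells. Prdx3, the mitochondrial peroxiredoxin, lay between 28.9 and 45.6 CPM in Gfra1+ cells, with the groups overlapping. Prdx4, which acts in the endoplasmic reticulum, was at 184 and 172 CPM in Gfra1+ cells of the CTRL and at 208 and 188 in those of the BU libraries, a difference of 0.25 ± 0.25 (adjusted p = 1.00). Prdx5, found in mitochondria, peroxisomes and cytosol, lay between 292 and 392 CPM in the same cells and Prdx6, which also has phospholipase activity, between 117 and 136 CPM. In all passing cells the differences were 0.33 for Prdx3, 0.14 for Prdx4, -0.08 for Prdx5 and 0.01 for Prdx6, and in Sox3+ cells 0.095, 0.06, -0.18 and -0.13 in the same order. None of these 4 passed in all passing, Gfra1+ or Sox3+ cells with or without the block.

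Counting the members whose 2 BU libraries lay on one side of the 2 CTRL libraries, 3 of 10 were above and 1 below in all passing cells, beside 18.5% and 14.9% of all genes tested. In Gfra1+ cells 3 were above (Txn1, Txnrd1, Prdx4) and 2 below (Prdx2, Prdx5), beside 10.8% and 21.6%. In Sox3+ cells 4 were above (the same with Gpx4) and 1 below, beside 26.1% and 20.7%. In Kit+ cells 0 were above and 3 below (Prdx2, Prdx3, Prdx6), beside 21.1% and 17.2%. The median log2 difference of the 10 members was 0.09 in all passing, 0.22 in Gfra1+, 0.08 in Sox3+ and -0.23 in Kit+ cells. Over all genes it was 0.07, 0.00, 0.02 and -0.01 in the same order. Without all shared barcodes 3, 3, 4 and 3 members lay above and 0, 0, 0 and 3 below in the same order, not all of them the same members. No share over all genes is at hand for that setting, so these counts are not a result about the members.

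**Figure D3:**
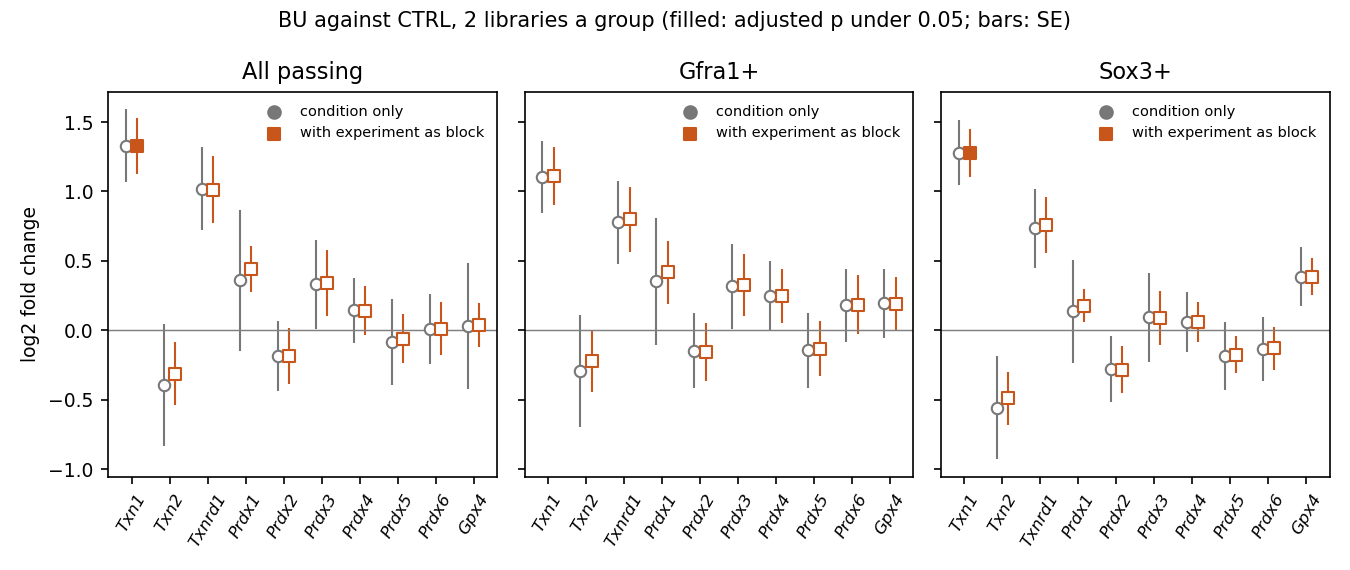
BU against CTRL log2 fold change of the 10 members in all passing, Gfra1+ and Sox3+ cells, without (grey circles) and with (orange squares) the experiment as a block, where bars are SE and filled marks passed at an adjusted p under 0.05. Txn1 lies at 1.11 to 1.33 and is filled in all passing and Sox3+ cells with the block, and Txnrd1 follows at 0.73 to 1.02, unfilled.

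Gpx4 was at 348 and 676 CPM in all passing cells of the CTRL libraries and at 362 and 657 CPM in those of the BU libraries. The difference of 0.03 ± 0.46 on the log2 scale was smaller than the gap between the experiments (adjusted p = 1.00). That gap was smaller without all shared barcodes. Gpx4 then had 10599 of 27135738 UMIs in CTRL 2 and 9908 of 18096181 in BU 2. With them it had 25936 of 38363348 and 34435 of 52375136. The gap was also smaller without cells carrying spermatid or somatic markers. In cells with over 5% of their UMIs in 8 spermatid genes Gpx4 was at 3829 and 3830 CPM in the CTRL and 2791 and 3221 in the BU libraries, from 35, 98, 7 and 62 cells. In cells negative for Gfra1, Sox3 and Kit it was at 468 CPM (CTRL 1) and 396 CPM (BU 1) in experiment 1, but experiment 2 gave 1987 CPM (CTRL 2) and 1248 CPM (BU 2), and there the spermatid markers summed to 71301 and 26569 CPM. In Sox3+ cells, where they summed to between 327 and 1333 CPM, Gpx4 was at 268 and 260 CPM in the CTRL and at 345 and 367 in the BU libraries. That difference of 0.39 ± 0.21 missed the threshold (edgeR, adjusted p = 0.484, and 0.128 with the block), and it was 0.45 without the cells carrying spermatid or somatic markers. In Gfra1+ cells the Gpx4 difference was 0.19 ± 0.25 (adjusted p = 1.00). The part of spermatid RNA in the Gpx4 levels beyond these values was not tested.

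**Figure D4:**
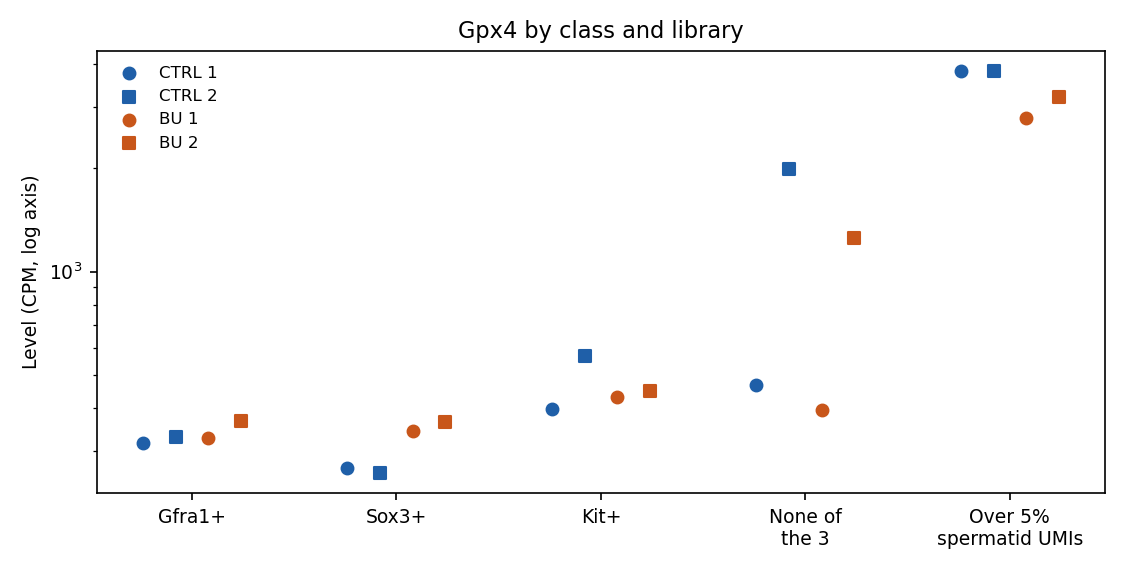
Level of Gpx4 (CPM, log axis) by class, with 1 point for each library. The cells with over 5% spermatid UMIs lie at 2791 to 3830 CPM and the Gfra1+ and Sox3+ cells at 260 to 367 CPM, while the cells negative for all 3 genes lie at 1987 and 1248 CPM in the libraries of experiment 2.

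Kit+ cells gave a different picture, which turned on 1 library. Txn1 was at 90.7 and 184 CPM for CTRL with 148 and 150 CPM for BU, so the groups overlapped (0.05 ± 0.39, edgeR, adjusted p = 1.00, and 0.939 with the block). Prdx3 was at 27.2, 92.4, 17.7 and 26.9 CPM, and Prdx2 at 121, 195, 92.5 and 93.9 CPM. CTRL 2 was the high library for each of the 3 genes. The BU difference was -1.53 ± 0.57 for Prdx3 and -0.82 ± 0.35 for Prdx2 (adjusted p = 0.568 and 0.612). The remaining members in Kit+ cells lay between -0.58 ± 0.36 for Prdx6 and 0.36 ± 0.37 for Txnrd1, with Txn2 at -0.54, Prdx5 at -0.27, Gpx4 at -0.18, Prdx4 at 0.05 and Prdx1 at 0.06 (adjusted p at least 0.786).

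The Kit+ cells of CTRL 2 held markers of Leydig cells, the steroid-making cells of the interstitium, which also carry Kit. The 5 markers (Cyp17a1, Star, Hsd3b1, Insl3, Cyp11a1) summed there to 6346 CPM, against 3.0 CPM (CTRL 1), 1.8 CPM (BU 1) and 4.1 CPM (BU 2). Removing cells with over 5% spermatid UMIs or at least 3 somatic markers left 30 of the 37 Kit+ cells of CTRL 2, in which the Leydig markers summed to 2.4 CPM and 3 of the 5 were at 0 in every library. A somatic marker counted from 1 UMI, so this cut depends on depth. Of all passing cells the removal took 109 (CTRL 1), 257 (CTRL 2), 49 (BU 1) and 249 (BU 2). Progenitor markers summed to 514, 474, 117 and 104 CPM in cells with at least 3 somatic markers. In all passing cells they summed to 490, 413, 108 and 90.8 CPM, so the removed cells are not shown to be somatic. In the remaining Kit+ cells Txn1 was at 91.0 and 80.4 CPM in the CTRL and 149 and 156 in the BU libraries, which no longer overlapped, a difference of 0.84 ± 0.32 (adjusted p = 0.858, and 0.227 with the block). Prdx3 was then at 22.0, 33.6, 18.0 and 28.5 CPM. Removing all shared barcodes instead left 18 of the 37 Kit+ cells of CTRL 2. Txn1 had 30 of 329631 UMIs in these cells, against 207 of 1126098 before. The Txn1 groups did not overlap then either, with 494 of 3333481 UMIs in BU 1 and 273 of 1764881 in BU 2. How far the cells with somatic markers and those with shared barcodes were the same was not tested. No member passed in Kit+ cells without the block (0% called, 909 genes at an unadjusted p under 0.05 and 46 called by DESeq2) or with it (0.952% of 11030 genes called), nor with the block and shared barcodes in the deeper library (0.68% called) or without mitotic cells (1.08% called). Over cells in 1 class only, the BU change of 3 of 10 members differed between Kit+ and Gfra1+ cells with all cells (4.25% called) and of 0 of 10 after the removal (0.549% called).

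The second comparison asked how the members differed between the classes, over cells in 1 class only, with the library as a block (12 sums). Txnrd1 was lower in Sox3+ than in Gfra1+ cells by -0.81 ± 0.13 on the log2 scale (edgeR, adjusted p = 0.00195), and it passed in 12 of the 13 alternatives, missing in the fit with no block (adjusted p = 0.137). In the classes as first defined its level in Sox3+ cells was below that in Gfra1+ cells of the same library in all 4 libraries (CTRL 40.3 against 64.8 and 58.6 against 100 CPM, BU 84.6 against 138 and 85.3 against 126 CPM). It was the 1 member of 10 called, beside 13.5% of all genes. Of the members that did not pass, Prdx6 was at 0.38, Prdx2 at 0.09, Txn2 and Prdx5 at 0.04, Prdx4 at -0.03, Prdx1 and Gpx4 at -0.26 and Prdx3 at -0.395. Txn1 was also lower in Sox3+ than in Gfra1+ cells in each library, with a difference of -0.52 ± 0.33 (adjusted p = 0.341) that passed without the cells carrying spermatid or somatic markers (-0.53 ± 0.10, adjusted p = 5.00e-04). In that setting 28.1% of all genes passed, and among the members so did Txnrd1, Prdx2 (0.30) and Prdx6 (0.53).

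Only 10, 15, 152 and 53 cells (CTRL 1, CTRL 2, BU 1, BU 2) were Kit+ and in no other class, and the Leydig markers summed to 17632 CPM in the 15 of CTRL 2. In these Kit+ cells the 6 differentiating markers summed to 1959, 649, 1280 and 877 CPM. In cells that were Gfra1+ and in no other class they summed to 1267, 849, 1582 and 1084 CPM. Against Gfra1+ cells, Kit+ cells had less Prdx1 (-0.70 ± 0.12, edgeR, adjusted p = 0.00292), less Txnrd1 (-0.58, adjusted p = 0.0184), less Txn2 (-0.41, adjusted p = 0.0414) and more Gpx4 (0.59, adjusted p = 0.0398), 4 of 10 beside 23.1% of all genes. In the 13 alternatives Prdx1 and Txnrd1 passed in 9 each, and Txn2 and Gpx4 in 6 each. Txn1 was at 0.71 ± 0.37, Prdx2 at 0.33, Prdx6 at 0.12, Prdx5 at 0.09 and Prdx4 at -0.30, and none of these passed. Against Sox3+ cells they had more Txn1 (1.23 ± 0.38, adjusted p = 0.0496) and Gpx4 (0.85, adjusted p = 0.0163) and less Prdx1 (-0.44, adjusted p = 0.0371) and Txn2 (-0.44, adjusted p = 0.0429), beside 14.4%, while Prdx2 was at 0.24, Txnrd1 at 0.22, Prdx5 at 0.05, Prdx6 at -0.26 and Prdx4 at -0.27 and did not pass. In the 13 alternatives Txn1 passed in 6, Gpx4 in 8, and Prdx1 and Txn2 in 7 each. Without the cells carrying spermatid or somatic markers, the Txn1 difference from Sox3+ cells was 0.47 ± 0.13 (adjusted p = 0.0120) and that of Gpx4 was 0.56 (adjusted p = 7.29e-04). Prdx3 then passed as lower in Kit+ cells, by -1.22 ± 0.19 against Gfra1+ cells (adjusted p = 8.02e-05, 38.3% called) and by -0.995 against Sox3+ cells (adjusted p = 0.00150, 27.5% called), while with all cells it was at 0.10 and 0.50 and did not pass. The sums behind these Prdx3 values held 3, 81, 26 and 48 Prdx3 UMIs with all Kit+ cells and 1, 5, 26 and 36 UMIs (from 9, 9, 151 and 46 cells) after the removal, so the CTRL side then rested on few UMIs. Without BU 1 or without BU 2 none of the 10 members passed in either comparison. Of all genes, 624 of 13244 and 670 of 12771 then passed against Gfra1+ cells, and 0 and 4 against Sox3+ cells. The spermatid markers of these Kit+ cells summed to 557, 21977, 519 and 1229 CPM and after the removal to 565, 1578, 522 and 571 CPM, and the part of spermatid RNA in the Gpx4 differences beyond these values was not tested.

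**Figure D5:**
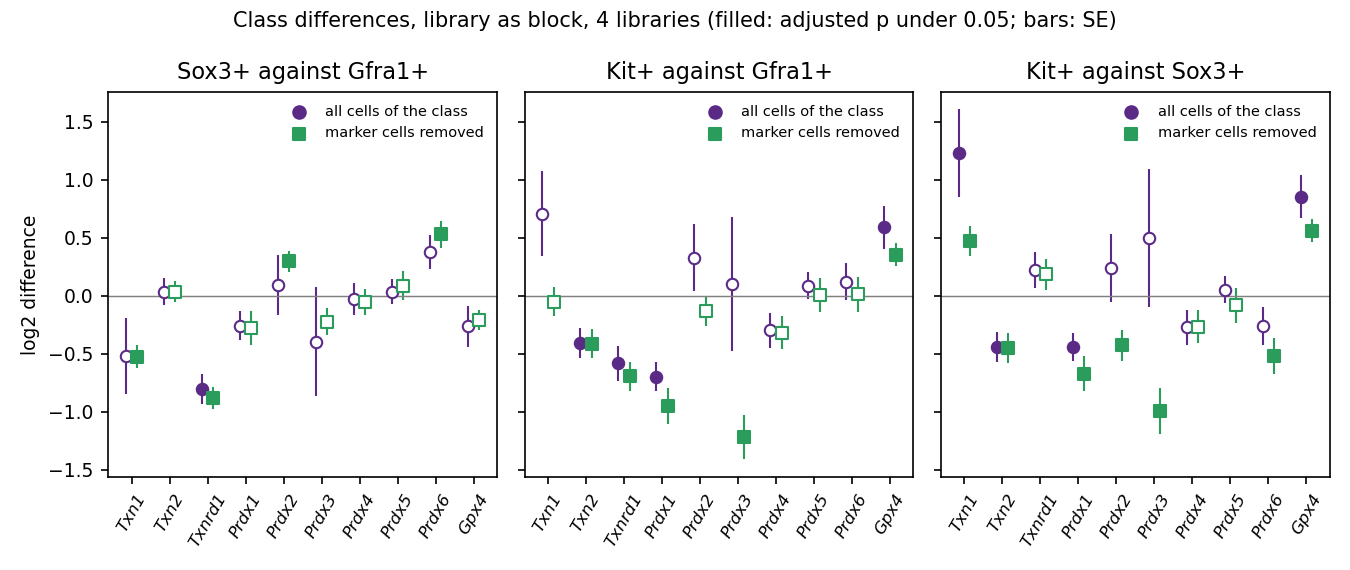
Log2 difference of the 10 members between classes (3 panels) with the library as a block, for all cells of the class (purple circles) and without cells carrying spermatid or somatic markers (green squares), where bars are SE and filled marks passed at an adjusted p under 0.05. Txnrd1 is filled in the left and middle panels at -0.58 to -0.88, and Prdx3 moves from 0.10 to -1.22 in the middle panel on removal of the marker cells.

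The other genes of the antioxidant system were read from 5 lists of 50 genes in all. With the block, 0 of 50 passed in all passing cells (1.49% of all genes) and 0 of the 47 tested in Gfra1+ cells (0.066%). In Sox3+ cells 2 of the 46 tested rose and 1 fell, a share near the 5.69% of all genes. Txnip, which binds and inhibits thioredoxin, was at 314 and 535 CPM in Sox3+ cells of the CTRL libraries and at 178 and 295 CPM in those of the BU libraries, and fell by 0.88 ± 0.13 on the log2 scale (edgeR with the block, adjusted p = 0.0299). In Gfra1+ cells its difference was -0.59 ± 0.19 (adjusted p = 0.260).

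Sephs2, which makes the selenium donor for selenoproteins such as Txnrd1 and Gpx4, was at 18.1 and 12.9 CPM in Sox3+ cells of the CTRL and at 42.7 and 33.4 in those of the BU libraries, and rose by 1.27 ± 0.20 (edgeR with the block, adjusted p = 0.0333). Mgst1, a microsomal glutathione transferase, rose by 1.98 ± 0.36 (adjusted p = 0.0387) from a level of at most 1.5 CPM to 2.5 and 6.6 CPM. Of 10 genes on the list of NRF2 and its known targets none passed between BU and CTRL in any class. This is near the shares of all genes, 0% without the block and 0.066% to 5.69% with it. The targets Txn1, Txnrd1 and Prdx1 were counted among the members and are not on this list. Of them, Txn1 passed with the block in all passing and Sox3+ cells. The median log2 difference of the list was 0.15 in all passing, 0.08 in Gfra1+, 0.01 in Sox3+ and -0.31 in Kit+ cells (9 genes tested in the last). Over all genes it was 0.07, 0.00, 0.02 and -0.01. Nqo1, a target of NRF2, was at 2.1 and 1.2 CPM in Gfra1+ cells of the CTRL and at 4.3 and 3.2 in those of the BU libraries, and Srxn1, the sulfiredoxin that repairs overoxidised peroxiredoxins, at 4.6, 4.6, 6.8 and 4.8 CPM. Both are low levels of genes picked after their values were seen.

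Between the classes, Txnrd3, the thioredoxin and glutathione reductase of the testis, was higher in Sox3+ than in Gfra1+ cells by 0.86 ± 0.15 (edgeR, adjusted p = 0.00295), opposite in sign to Txnrd1. Its level was 106, 117, 97.2 and 96.0 CPM in Sox3+ cells (CTRL 1, CTRL 2, BU 1, BU 2) and 75.7, 79.2, 50.5 and 50.4 CPM in Gfra1+ cells, so it was higher in Sox3+ cells of every library. Of the 47 listed genes tested, 4 were higher in Sox3+ cells (also Gss, Pgd and Pstk) and 2 lower (Gclc and Sephs1), a share near the 13.5% of all genes. In Kit+ against Gfra1+ cells 3 were higher, Txnrd3 (1.04), the superoxide dismutase Sod2 (0.56) and Ccs, the copper chaperone of Sod1 (1.27). Lower there were 6, Sephs1 (-1.76), Txnip (-1.37), the glutathione peroxidase Gpx1 (-1.07), the haem oxygenase Hmox1 (-0.86), Txndc17 (-0.58) and Gclc (-0.36), and the 9 together were a smaller share than the 23.1% of all genes. Against Sox3+ cells, Kit+ cells had more Sephs2 (0.70) and less Txnip (-1.52), Nxn (-0.86), Gsto1 (-0.78), Pstk (-0.60) and Txndc17 (-0.52), beside 14.4% of all genes. These Kit+ values of listed genes rest on the same 10, 15, 152 and 53 cells, with Leydig markers in CTRL 2. Values without cells carrying spermatid or somatic markers are not given for them. The difference of the BU change between Kit+ and Gfra1+ cells passed for 10 of the 47 listed genes (4.25% of all genes), with Gclm and Trnau1ap higher in Kit+ cells and Glrx, Glrx2, Gpx1, Gpx8, Mgst1, Gstm1, Nqo1 and Me1 lower, in the same sums as the Leydig markers of CTRL 2.

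The genes whose pattern over the 12 sums was most like that of Txn1 were Cnpy2 (Pearson r = 0.957), Cdc6 (0.948), Tcea2 (0.937), Krcc1 (0.936) and Twf1 (0.930), on log2(CPM + 1) among genes with a mean of at least 10 CPM. For Gpx4 they were Cux1 (0.977), Tpd52l1 (0.967), Creg1 (0.960), Fkbpl (0.936) and Pgp (0.932). These values describe 12 sums that share libraries, and in both cases the Kit+ sum of CTRL 2 was an extreme point, with Txn1 at 360 and Gpx4 at 846 CPM.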

How the data were processed

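The deposited files hold raw UMI counts, the filtered gene by cell matrices written by Cell Ranger 3.0.2 (per the file headers), which the authors did not normalise. The methods name mm10 and the submitters' processing notes GRCm39 and Seurat 3.2, and the coordinates given here are those of GENCODE M21 and RefSeq on GRCm38. Sources differ on the droplet kit of experiment 2 (version 3.1 in the labels, version 2 in the methods). The gene tables differed (27998 and 31053 genes), and the 27514 identifiers in all 4 were kept. How reads shared with processed pseudogenes or the paralogue Prdx6b were counted is not given in the sources used here, so levels of such genes are uncertain to that extent.

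UMIs were summed per library and class and tested by the quasi-likelihood test of edgeR 4.0.16 in R 4.3.3 (filter by filterByExpr, scaling by TMM) with Benjamini-Hochberg adjustment at 0.05 over all genes. BU was tested against CTRL with condition as the only term, classes with the library as a block over cells in 1 class only, and the difference of BU changes by interaction terms. The library numbers mark an experiment shared by 1 CTRL and 1 BU library. Libraries of 1 experiment deviated together from the means of their groups (r = 0.779 over genes). The first 2 principal components held 70.5% and 23.5% of the variance, and which libraries each of them split was not recorded. The fit with this block is given beside results it changes. Its p-values measure the spread of the BU to CTRL difference over the 2 experiments, with few degrees of freedom left. Those between classes measure the spread of class differences over the 4 libraries. The fits were run on simulated counts with known changes, which does not show how they perform on real spread with n = 2.

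Alternatives were the replicate block, DESeq2 1.42.0, its size factors, total UMI scaling, no filter, each library left out, a mitochondrial share under 10%, doublets removed (scanpy 1.11.5, 0.8% per 1000 cells), marker-carrying or mitotic cells removed, other class definitions and thinning to 2000 UMIs. Removing or reassigning shared barcodes, and joining the block with another alternative, were added after the data were seen. Sums were made with numpy 2.4.6 and pandas 2.3.3, and figures with matplotlib 3.10.9 (Python 3.11.15, scipy 1.17.1). Library totals ran from 21136369 to 53579969 UMIs, but sums of small classes were shallow (89841 UMIs in the Kit+ cells of CTRL 1 in no other class), where counting error is large for low genes such as Prdx3.

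The rule was to name every member in every comparison, listed companions where they passed in the main or blocked fit, with Nqo1 and Srxn1 added after their values were seen, and the 5 genes most like Txn1 and Gpx4. The members and lists were chosen with earlier results of these data known.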

Additional observations from a re-analysis of the deposited data

Results flagged for a closer look

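For 3 members the BU change differed between Kit+ and Gfra1+ cells by the edgeR interaction term, beside 4.25% of 13273 genes. The difference (Kit+ minus Gfra1+, log2) was -1.89 ± 0.33 (SE) for Txn1 (adjusted p = 0.00957), -1.47 ± 0.30 for Prdx2 (adjusted p = 0.0191) and -3.33 ± 0.39 for Prdx3 (adjusted p = 0.00175). All 3 had their highest level in the 15 Kit+ cells of CTRL 2 that were in no other class, with Txn1 at 360 CPM against 111 in CTRL 1, Prdx2 at 348 against 145 and Prdx3 at 200 against 33.4. The Leydig markers of these cells summed to 17632 CPM. Without the cells carrying spermatid or somatic markers, 9 of the 15 remained and the differences were 0.22 for Txn1 (adjusted p = 0.873), -0.39 for Prdx2 (0.687) and -0.74 for Prdx3 (0.711), with 0.549% of genes called. No group held 4 or more libraries, so single libraries were not tested as outliers.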

How the results depend on the processing

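With n = 2 libraries per group, precision was set by the spread between libraries. Of 1560 log2 values of a member under an alternative (edgeR unless DESeq2 is named), 1452 stayed on their side of the threshold (120 of them with a change of sign and no call in either fit), 31 passed where the main value had not, 65 no longer passed and 12 changed sign with a call on 1 side. BU against CTRL gave 204, 237, 231 and 239 of the 1452 in all passing, Gfra1+, Sox3+ and Kit+ cells. The difference of the BU change between Sox3+ and Gfra1+ cells gave another 120. No member was called in these main fits, so such values passed in neither fit. Those that no longer passed lay in Kit+ against Gfra1+ (22), Kit+ against Sox3+ (24) and Sox3+ against Gfra1+ cells (1). The other 18 lay in the interaction of Kit+ and Gfra1+ cells. The numbers of members called follow, and the cause of a change was not tested. In BU against CTRL the main count was 0. With the replicate block it was 1 (Txn1) in all passing and in Sox3+ cells and 0 in Gfra1+ and Kit+ cells, and over all genes the calls went from 0 to 258, 822, 9 and 105. With the replicate block and another change, all passing cells gave 2 with DESeq2 or without marker-carrying cells and 1 with shared barcodes in the deeper library. Gfra1+ cells gave 1 with the block and DESeq2, without marker-carrying or without mitotic cells. Sox3+ cells gave 1 in each block fit but that without shared barcodes (0), and 1 with DESeq2 or no filter without the block. Leaving out 1 library gave 0 to 1 in Sox3+ and in Kit+ cells, where Prdx3 passed without CTRL 1, with the lone library of a group assumed to vary like the other group. In Sox3+ against Gfra1+ cells the main count was 1, with 2 by DESeq2, 3 with 1 UMI after thinning, 4 without marker-carrying cells, 0 with no replicate block and 1 to 4 without 1 library. The calls over all genes were 1795 in the main fit and 2484, 1919, 3586, 417 and 666 to 3474 in the same order. In Kit+ against Gfra1+ cells the main count was 4, with 2 for no filter or no shared barcodes, 0 with no replicate block and 0 to 5 without 1 library. All genes gave 3069 calls in the main fit and 3616, 2173, 907 and 624 to 5207 in the same order. In Kit+ against Sox3+ cells the main count was 4, with 2 under total UMI scaling or 1 UMI after thinning, 7 without marker-carrying cells, 1 without shared barcodes, 0 with no replicate block and 0 to 6 without 1 library. All genes gave 1908 calls in the main fit and 2005, 561, 3505, 888, 78 and 0 to 3110 in the same order. For the difference of the BU change between Kit+ and Gfra1+ cells the main count was 3, with 1 by DESeq2 and 0 with 1 UMI after thinning, without marker-carrying cells or without shared barcodes. The calls over all genes were 564 in the main fit and 384, 4, 70 and 0 in the same order.

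Signs turned for Prdx3 in Kit+ against Gfra1+ cells, to -1.27 without CTRL 2 (0.77 at most without 1 library), -1.14 with 1 UMI after thinning, -1.22 without marker-carrying cells and -1.50 without shared barcodes, and for Prdx2 to -0.45 with 1 UMI after thinning. Against Sox3+ cells, Prdx3 went to -0.94 without CTRL 2 (1.18 at most without 1 library), -0.995 without marker-carrying cells and -1.11 without shared barcodes, and Prdx2 to -0.37 (0.56 at most) and -0.43 in the first 2 of these. The Txn1 interaction went to 0.22 without marker-carrying cells and 0.54 without shared barcodes. The BU difference of Txn1 stayed between 0.94 and 1.20 in Gfra1+ and between 1.16 and 1.35 in Sox3+ cells in 24 alternatives each, and between -0.79 and 0.85 in Kit+ cells. Total UMI scaling moved the median of all genes in Kit+ against Sox3+ cells from 0.00 to 0.14 and the higher calls from 774 of 1908 to 1301 of 2005, and in all passing cells with the block the calls from 258 (111 higher) to 28 (9 higher). The number of members whose thinned shares did not overlap went in all passing cells from 4 to 2 at 2000 UMIs and without thinning, in Gfra1+ cells from 4 to 7 and 0, in Sox3+ cells from 4 to 0 without thinning and in Kit+ cells from 3 to 6 and 1. No share over all genes is at hand for thinned shares, so these counts are not a result about the members. For levels in CPM, 18.5% of all genes lay above and 14.9% below in all passing cells.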
